A study of Mus musculus with 6 samples.

Results

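SLAM family receptors are type I membrane proteins of the immunoglobulin superfamily, or in the case of CD48 a lipid-anchored protein, on the surface of blood cells. Most of them bind an identical receptor on a neighbouring cell, and those with a long cytoplasmic tail carry tyrosine switch motifs that recruit the small adaptors SAP and EAT-2, Src family kinases or phosphatases. Their genes lie close together on mouse chromosome 1, in a region that has been linked to lupus susceptibility in strains of New Zealand origin, and SLAM receptors on macrophages are known for roles in phagocytosis and cell adhesion. The 6 genes described here, Cd48, Cd84, Ly9, Slamf7, Slamf8 and Slamf9, were taken by name from the 32879 genes that had records in the count files. The other 3 receptors of the family in the same region, Slamf1, Slamf6 and Cd244a, are given beside them.

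RNA was sequenced from sorted peritoneal macrophages (PMs, CD11b+ F4/80+), with 1 library for each of 3 control mice and 3 diseased-BWF1 mice, all female. Control mice were F1 offspring of New Zealand white and BALB/c parents, a non-autoimmune cross of the same H2 haplotype, aged 33, 33 and 30 weeks. Diseased-BWF1 mice were F1 offspring of New Zealand black and New Zealand white parents with antibodies to double-stranded DNA and severe proteinuria, aged 31, 31 and 34 weeks. Both crosses thus had a New Zealand white parent, and disease and the other parental strain cannot be told apart. Each library held between 3629901 and 5003360 estimated counts, so that 3 counts corresponded to 0.652 to 0.888 CPM (counts scaled to a common total on genes), a limit that covers counting error only. All 10 macrophage markers examined were detected in every mouse, and Adgre1, which encodes F4/80, had 8287 ± 217 normalized counts (counts divided by a size factor for each library) in control and 7384 ± 360 in diseased-BWF1 mice (SD, n = 3). Among the 10505 genes compared between groups, 20.9% had control and diseased-BWF1 values that were fully separated. The macrophage markers did not move together. Of the 10, 6 did not overlap between groups, with Adgre1, Timd4, Icam2, Lyz2 and Cd68 lower and Cd14 higher in diseased-BWF1 mice. None was called by edgeR, while DESeq2 called Cd68 (2269 ± 359 against 1067 ± 245 normalized counts, log2 fold change -1.10 and adjusted p = 0.0718 with edgeR, adjusted p = 0.000124 with DESeq2), and their part in the levels of the SLAM genes was not tested. Because these are bulk RNA samples, a smaller number of cells expressing a gene and less RNA per cell cannot be told apart.

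Promoter sequences from RefSeq (GRCm38.p6, from 250 bases before to 50 bases after the start used for each gene) were found for 8 of the 9 receptors. The start used was not always that of the gene positions given below. They are shown for Cd84, the receptor with the highest mean level in PMs, for Slamf9, the one with the largest fold difference between groups, and for Slamf1, which had no counts. Capitals mark GAGGAA on either strand, the core letters of a PU box, which the myeloid factor PU.1 is known to bind.
Cd84 promoter, chr1:171839447-171839746, plus strand: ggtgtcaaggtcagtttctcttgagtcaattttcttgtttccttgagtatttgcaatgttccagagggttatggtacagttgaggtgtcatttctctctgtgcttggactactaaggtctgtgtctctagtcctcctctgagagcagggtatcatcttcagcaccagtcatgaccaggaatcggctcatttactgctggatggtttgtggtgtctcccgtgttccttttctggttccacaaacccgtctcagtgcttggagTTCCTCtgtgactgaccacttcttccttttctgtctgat
Slamf9 promoter, chr1:172475110-172475409, plus strand: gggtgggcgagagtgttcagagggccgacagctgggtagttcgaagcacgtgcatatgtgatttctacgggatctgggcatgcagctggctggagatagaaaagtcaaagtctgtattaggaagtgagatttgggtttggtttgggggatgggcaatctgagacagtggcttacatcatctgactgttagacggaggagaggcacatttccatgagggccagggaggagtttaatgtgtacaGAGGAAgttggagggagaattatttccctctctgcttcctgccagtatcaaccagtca
Slamf1 promoter, chr1:171766882-171767181, plus strand: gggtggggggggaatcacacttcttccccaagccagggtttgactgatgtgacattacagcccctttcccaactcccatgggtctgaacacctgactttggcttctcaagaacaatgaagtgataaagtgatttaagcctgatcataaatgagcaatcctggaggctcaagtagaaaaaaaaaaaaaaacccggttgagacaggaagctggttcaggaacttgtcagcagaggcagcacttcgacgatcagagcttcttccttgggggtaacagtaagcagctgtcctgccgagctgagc
The letters GAGGAA were present in 4 of these 8 windows, those of Cd84, Cd244a, Slamf8 and Slamf9, and in 28.3% of all 32851 promoter windows of the same length. The Slamf9 window spans the GENCODE start at 172475358 and does not hold the RefSeq gene start at 172458569. Counted from the start used, the letters begin at position -8 in Slamf9, and in Cd84 they lie on the opposite strand from position 11. None of the 8 windows held TATAAA or GGGCGG on either strand, compared with 13.6% and 35.7% of all windows. These matches are a description of the letters in the window and not evidence of a bound factor.

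By CPM per kilobase of exon, Cd84 and Cd48 were the most abundant SLAM receptors of PMs in both groups. Neither differed detectably between diseased-BWF1 and control mice. None of the 5 genes that passed the low-count filter was called, where a call by edgeR's quasi-likelihood test needed both a difference of 1.5-fold or more and a p-value below 0.05 after Benjamini-Hochberg adjustment. Among all 10505 genes tested, 128 were called, or 1.22%. DESeq2 called 3.54% of the tested genes and also none of the 5. An unadjusted p under 0.05 was found for 1 of the 5, Slamf9, and for 13.2% of all tested genes. The median log2 fold change was -0.04 over these 5 genes and 0.0053 over all tested genes, and the sixth, Slamf7, was below the filter.

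**Figure D1:**
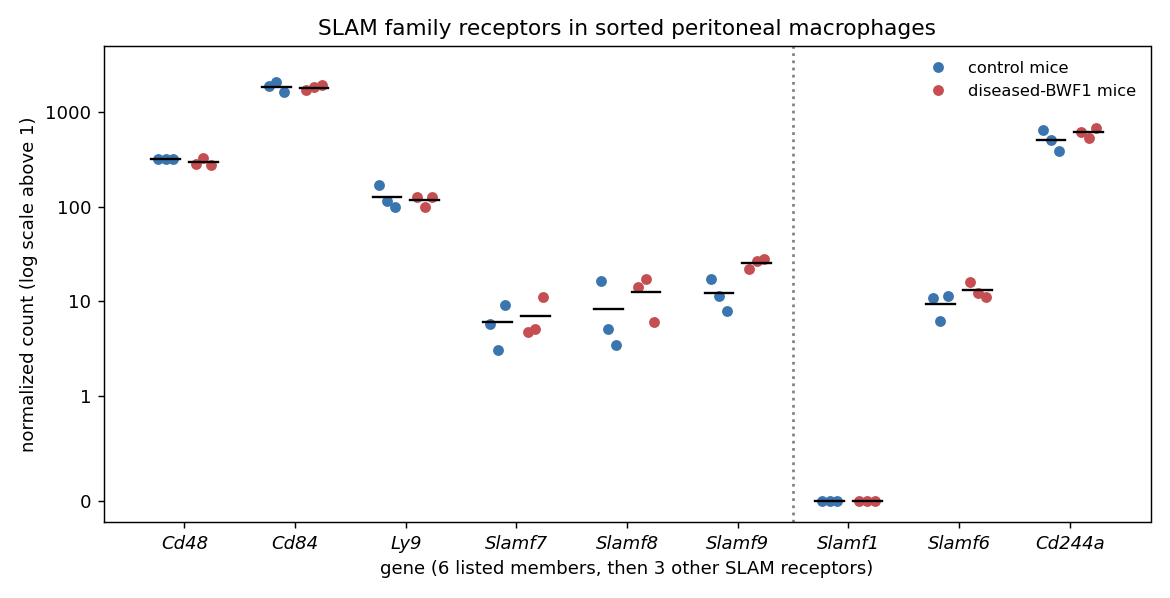
Normalized counts (y axis, logarithmic above 1) of the 6 SLAM genes and of the 3 other receptors of the family (x axis) in each mouse, with black bars for group means. Cd84 lies between 1613 and 2059 in all mice, Slamf1 is at 0 in all, and Slamf9 is the gene whose groups do not overlap.

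To compare levels between genes, counts were expressed as CPM per kilobase of annotated exon. On this scale Cd84 had 76.6 ± 8.88 in control and 76.8 ± 3.42 in diseased-BWF1 mice, and Cd48 had 69.2 ± 1.08 and 66.1 ± 4.998. Cd84 was above Cd48 in 5 of 6 mice, but their ranges overlapped, so their order was not resolved. Cd244a, the receptor for CD48, came next with 27.2 ± 7.27 and 33.3 ± 4.11, below the lowest value of Cd48 in every mouse. By normalized counts, which take no account of length, Cd244a was instead above Cd48 in every mouse. The length of Cd244a came from a GENCODE model that ends at 171609746, past the RefSeq end at 171585316. Ly9 had a level of 10.05 ± 3.01 and 9.45 ± 1.44, and Slamf9 a level of 2.42 ± 0.966 and 5.15 ± 0.605, each clear of its neighbours in the order. Slamf8 (0.709 ± 0.612 and 1.08 ± 0.496), Slamf7 (0.341 ± 0.173 and 0.404 ± 0.205) and Slamf6 (0.227 ± 0.0705 and 0.322 ± 0.0703) closed the order with overlapping ranges. By mean level over the 6 mice, Cd84 exceeded 95.5% of the tested genes that had a length, Ly9 64.0% and Slamf8 5.86%.

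Cd84 encodes a receptor that binds itself and is found on B cells, T cells, platelets and macrophages. It lies on the plus strand of chromosome 1 from 171839697 to 171890718, with no other annotated gene overlapping it. The control mice had 1899, 2059 and 1613 normalized counts and the diseased-BWF1 mice 1714, 1822 and 1910. The values of the diseased mice all fell inside the range of the controls. On the log2 scale the groups differed by -0.04 ± 0.14 (SE, adjusted p = 0.934, edgeR), with a 95% interval from 0.775-fold to 1.22-fold, so a 1.5-fold change in either direction lay outside the interval. Nearly all of its counts were carried by 3 curated transcript records. The main record, NM_013489, held 74.6% ± 2.96 of the gene's counts in control and 72.6% ± 4.15 in diseased-BWF1 mice, and NM_001289470 held 19.6% ± 1.86 and 22.7% ± 4.18. Tested on their own in a fit over 20332 records, the 3 records had log2 fold changes from -0.34 to 0.16. None of them was called (adjusted p = 0.9997 for each, edgeR), and the share of all records called was not counted. The shares of the 3 records overlapped between the groups, as did the total.

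Cd48 encodes a lipid-anchored protein without a signalling tail, which in mice binds both CD244 and CD2. It is located at 171681245 to 171705258. Its normalized counts were 317.8, 317.4 and 318.9 in control mice and 283, 326 and 279 in diseased-BWF1 mice. The SD of the control mice was 0.252% of their mean, less than the counting error, which was 17.8 normalized counts for 1 library at this level. The log2 difference was -0.11 ± 0.12 (SE, adjusted p = 0.742, edgeR), with an interval from 0.768-fold to 1.12-fold. One of the diseased mice lay above all controls and the other two below them. A single curated record, NM_007649, held 98.1% ± 1.46 and 96.7% ± 0.949 of the counts of the gene.

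Ly9 encodes CD229, a self-binding receptor best known on T and B lymphocytes, and lies on the minus strand from 171588613 to 171607410. Cd244a overlaps it on the opposite strand in GENCODE, the libraries were made with a stranded kit, and whether the counting used strand is not given in the sources used here. The control mice had 169.6, 115 and 99.4 normalized counts and the diseased-BWF1 mice 126, 98.5 and 128. The groups overlapped, and the highest value belonged to control mouse 1. A log2 difference of -0.14 ± 0.23 was obtained (SE, adjusted p = 0.843, edgeR), with an interval from 0.630-fold to 1.31-fold. Without control mouse 1 it was 0.12, so the direction rested on that animal. Its records were unevenly filled. The coding record NM_008534 held from 55.2% to 91.2% of the counts among control mice and from 56.7% to 88.7% among diseased-BWF1 mice, and NM_001277968 was at 0 in 3 of the 6 mice.

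**Figure D2:**
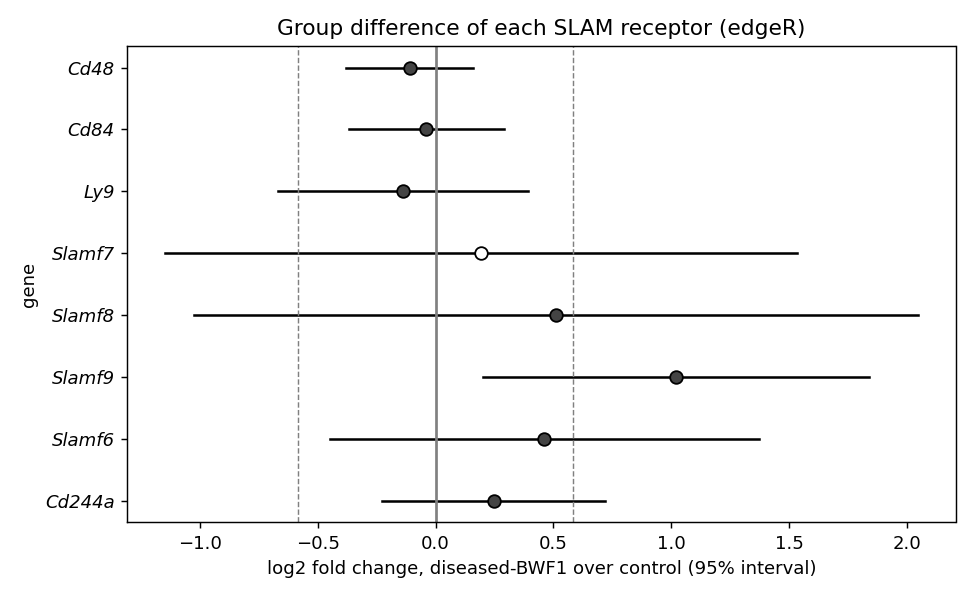
Log2 fold change of each receptor in diseased-BWF1 over control mice (x axis) with its 95% interval as a line. The open circle marks Slamf7, which was taken from the fit without the low-count filter, and dashed lines mark 1.5-fold. The intervals of Cd84 and Cd48 lie inside the dashed lines, and that of Slamf9 lies to the right of 0.

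Slamf9 encodes a receptor with a short cytoplasmic tail that lacks switch motifs and is expressed by macrophages and dendritic cells. It showed the largest difference of the family, although it did not pass the test. Its raw counts were 21, 11 and 7 in control mice and 23, 26 and 28 in diseased-BWF1 mice, which gave 17.4, 11.3 and 8.001 against 21.8, 26.4 and 28.2 normalized counts. Every diseased mouse lay above every control mouse, as was the case in one direction or the other for 20.9% of all tested genes. The means were 12.2 ± 4.75 and 25.5 ± 3.31 (SD, n = 3), and an exact two-sided permutation test gave p = 0.1, the smallest that 3 mice against 3 allow. This was a log2 difference of 1.02 ± 0.35 (SE, unadjusted p = 0.0213, adjusted p = 0.266, edgeR), with an interval from 1.15-fold to 3.58-fold. With DESeq2 the log2 fold change was 1.03 and the adjusted p 0.426. Leaving out any 1 mouse gave log2 fold changes from 0.81 to 1.37. All counts fell on the curated record NM_029612. The gene is located at 172458569 to 172478421 on the plus strand, and no other annotated gene overlapped it.

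Slamf8 encodes another receptor without switch motifs, known in macrophages as a restraint on oxidase activity, and lies on the minus strand from 172581377 to 172590873. It had 20, 5 and 3 raw counts in control and 15, 17 and 6 in diseased-BWF1 mice. The groups overlapped, with 1 low and 2 high mice in the diseased group and the reverse among controls. Expressed on the log2 scale the difference was 0.51 ± 0.66 (SE, adjusted p = 0.791, edgeR), and its interval ran from 0.492-fold to 4.13-fold. The SDs of 7.13 in control and 5.80 in diseased-BWF1 mice were above the counting errors of 2.66 and 3.44 normalized counts. Leaving out any 1 mouse gave log2 fold changes from 0.17 to 1.496. The highest was without control mouse 1, with an adjusted p of 0.45 (edgeR), and the lowest without control mouse 3.

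Slamf7 encodes CRACC, a self-binding receptor of NK cells, plasma cells and activated macrophages that takes part in phagocytosis together with the integrin Mac-1. It lies on the minus strand from 171632403 to 171653037. Only 7, 3 and 8 counts were found in control mice and 5, 5 and 11 in diseased-BWF1 mice, and the gene was below the low-count filter. An unfiltered fit gave a log2 difference of 0.19, with an interval from 0.452-fold to 2.90-fold, and no difference was detectable at this depth.

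Of the other receptors of the family, Slamf1, which encodes CD150, had 0 counts on its 3 records in all 6 mice, where 3 counts would be 0.652 to 0.888 CPM. Slamf6, which encodes Ly108, had 6 to 13 counts in control and 11 to 17 in diseased-BWF1 mice, a log2 difference of 0.46 ± 0.39 (SE). These counts were scattered over 6 records, none of which had counts in more than 3 mice. Cd244a had 649, 503 and 385 normalized counts in control mice and 615, 538 and 681 in diseased-BWF1 mice, a log2 difference of 0.25 ± 0.20 (SE, adjusted p = 0.66, edgeR). Its counts were divided between the curated record NM_018729 and the predicted record XM_006496695. The predicted record held 51.0%, 53.7% and 36.2% of the gene's counts in control mice and 56.9%, 66.6% and 61.4% in diseased-BWF1 mice. The shares of the groups did not overlap, and how often this happens among all genes was not counted. Tested alone, the predicted record differed by 0.60 ± 0.32 on the log2 scale (SE, adjusted p = 0.979, edgeR) and the curated one by -0.18.

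**Figure D3:**
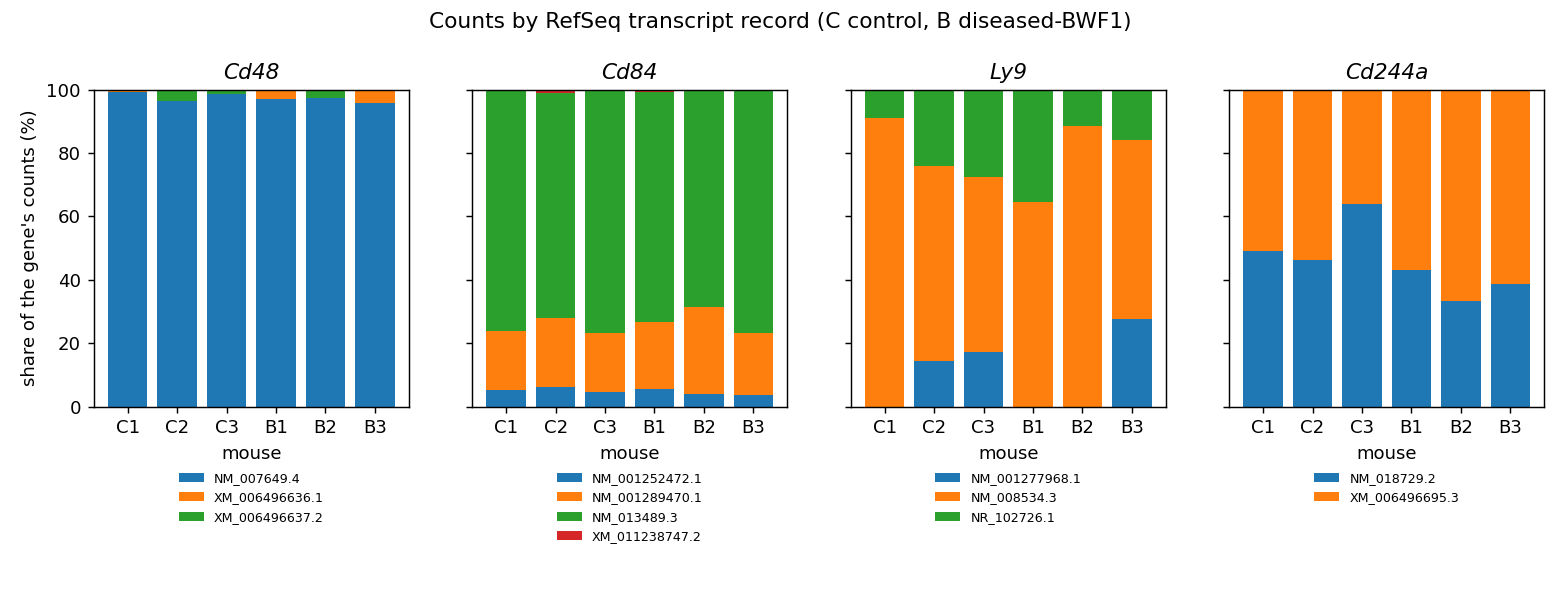
Share of each gene's counts (y axis, percent) on each RefSeq transcript record, in control mice (C1 to C3) and diseased-BWF1 mice (B1 to B3). Cd48 rests on 1 record and Cd84 on the same 3 in every mouse, and the records of Ly9 change from mouse to mouse. The predicted record of Cd244a is at least 56.9% in each diseased mouse and at most 53.7% in each control. How often such shares separate among all genes was not counted.

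The adaptors through which the switch motifs signal in lymphocytes were not detected in PMs. Sh2d1a, which encodes SAP, and Sh2d1b1 and Sh2d1b2, which encode EAT-2 and its relative, each had 0 counts in all 6 mice, which allows up to 3 counts in a library. Several kinases and phosphatases that can bind the same motifs were present, while the kinase Lck had at most 1 count in a mouse. Lyn had 1260 ± 109 normalized counts in control and 1415 ± 115 in diseased-BWF1 mice, Ptpn6, which encodes SHP-1, had 909 ± 135 and 995 ± 125, and Inpp5d, which encodes SHIP-1, had 808 ± 171 and 783 ± 135. Fyn, the kinase that SAP recruits, had 136 ± 29.5 and 154 ± 8.37. Itgam and Itgb2, the subunits of Mac-1, were among the abundant genes, with 24201 ± 3143 and 10668 ± 707 normalized counts in control mice and 26612 ± 1789 and 9712 ± 1318 in diseased-BWF1 mice. Of 32 genes listed as SLAM receptors outside the 6, adaptors, kinases, phosphatases and partners, 25 were tested. None of the 25 was called in either direction, by edgeR or DESeq2. Among all tested genes, edgeR called 1.22% and DESeq2 3.54%. The median log2 fold change of the 25 was -0.029, and 12 had values above 0 and 13 below.

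Among the 25 tested genes of this list the smallest p for a lower value belonged to Tyrobp, which encodes the signalling chain DAP12. Its normalized means were 2701 ± 284 in control and 2226 ± 273 in diseased-BWF1 mice, a log2 difference of -0.29 ± 0.16 (SE, adjusted p = 0.497, edgeR). All diseased mice lay below all control mice, and the groups did not overlap for 20.9% of all tested genes.

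Smaller p-values in this direction were found below the filter, for Cd2 and Prkcq, both named here after their values were seen. Cd2, which encodes the other partner of CD48 and is known from T and NK cells, had 6, 5 and 6 counts in control mice and 1, 0 and 1 in diseased-BWF1 mice. An unfiltered fit gave it a log2 difference of -2.90 ± 0.88 (SE, adjusted p = 0.184, edgeR). Prkcq, which encodes the kinase PKC theta, had 14, 9 and 7 counts in control and 4, 3 and 2 in diseased-BWF1 mice (log2 difference -1.69 ± 0.58, SE, adjusted p = 0.273, edgeR). Markers of lymphocytes were low. The 9 B cell markers with records summed to 6.83 to 9.12 CPM in control and 3.20 to 5.58 CPM in diseased-BWF1 mice, the 8 T cell markers to 0.296 to 3.47 and 1.86 to 3.59 CPM, and the 6 NK cell markers to 1.18 to 6.52 and 0.256 to 0.797 CPM. The sums of B and NK cell markers did not overlap between groups and were higher in controls, while those of T cells overlapped. The NK cell sum rested on Klrk1, with 29, 7 and 3 counts in control and 0, 2 and 1 in diseased-BWF1 mice, and the other 5 NK cell markers had at most 1 count in a mouse. Without Cd79a, its most abundant gene, the B cell sum was 4.44 to 6.30 CPM in control and 2.93 to 3.98 CPM in diseased-BWF1 mice. None of these markers passed the filter. Their part in the counts of Cd2, Ly9 or Slamf7 was not tested. Plasma cell markers summed to at most 2.92 CPM, mast cell markers to 0.797 CPM, eosinophil markers to 2.66 CPM and neutrophil markers to 8.21 CPM in any mouse, with the neutrophil genes Ly6g and Retnlg, the mast cell genes Kit, Mcpt4 and Fcer1a and the eosinophil genes Prg2 and Epx at 0. Markers of monocytes and dendritic cells summed to 47.1 to 83.5 CPM in control and 17.6 to 22.3 CPM in diseased-BWF1 mice, and Cd209a alone made up the drop. It had 162, 207 and 244 counts in control and 8, 18 and 5 in diseased-BWF1 mice and was the only marker called by edgeR (log2 fold change -4.34, adjusted p = 0.0117). Without it the sum was lower in control mice, at 11.3 to 11.9 CPM, than in diseased-BWF1 mice, at 14.9 to 20.3 CPM.

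The interval spanned by the family on chromosome 1, from 171558718 to 172590873, held 44 annotated genes, of which 33 had records and 16 were tested. None of the 16 was called, against 1.22% of all tested genes. Of the 16, 2 had an unadjusted p under 0.05, Slamf9 above and the cilia gene Cfap45, against 13.2% of all tested genes. Across these 16, log2 fold changes had a median of 0.041. Cfap45 lies between Slamf9 and Slamf8, with 62, 39 and 41 raw counts in control and 26, 24 and 24 in diseased-BWF1 mice. Its control and diseased-BWF1 values were fully separated, a pattern shared by 20.9% of all tested genes. The log2 difference for Cfap45 was -0.92 ± 0.21 (SE, adjusted p = 0.102, edgeR). Among the 9 tested genes of the interval that are not SLAM receptors, the highest log2 fold change was 0.27, for Pigm (adjusted p = 0.519, edgeR).

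**Figure D4:**
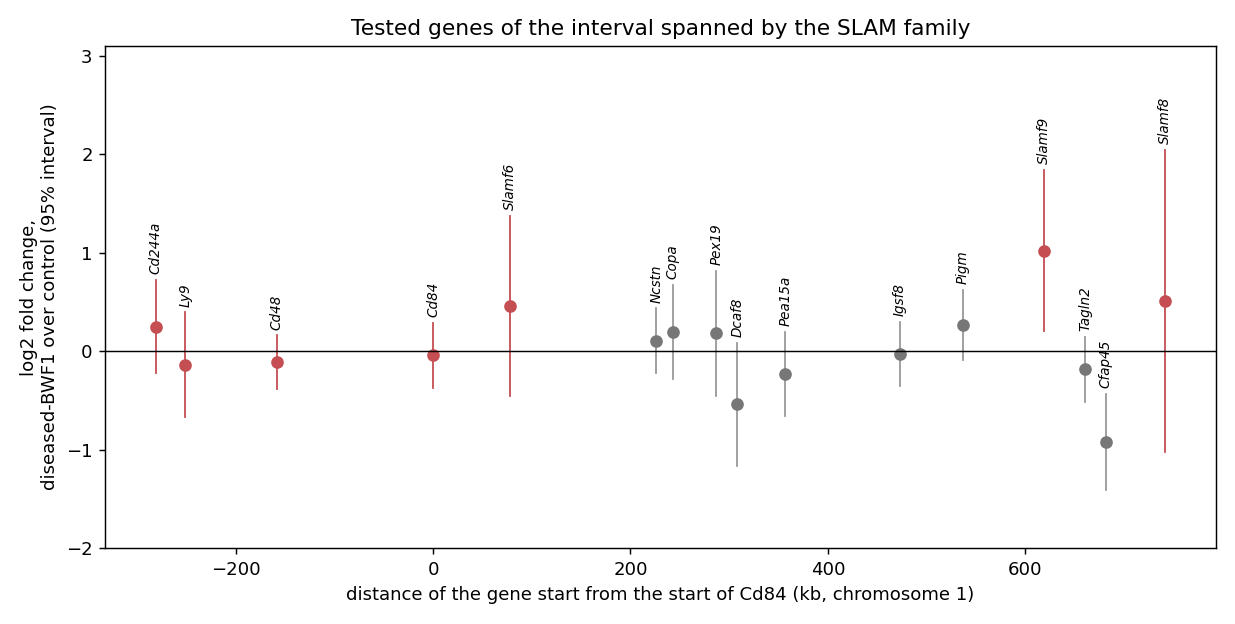
Log2 fold change in diseased-BWF1 over control mice (y axis, lines for 95% intervals) of the 16 tested genes, placed by the distance of their start from that of Cd84 (x axis, kb), with SLAM receptors in red. Values lie on both sides of 0 along the interval, and Slamf9 and Cfap45 are the genes whose intervals do not include 0.

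The genes whose log2 CPM followed that of each receptor most closely over the 6 libraries were found by Pearson's r among 10504 tested genes, given here as a description. For Slamf8 these were Trim30d (r = 0.994) and Cmpk2 (r = 0.989), both known as interferon-stimulated genes. Trim30d had 243, 97 and 72 raw counts in control mice and 180, 213 and 102 in diseased-BWF1 mice, so that control mouse 1 and diseased mice 1 and 2 were high for it as for Slamf8. For Slamf9 they were Pram1 (r = 0.992) and Prkar2b (r = 0.986), whose log2 fold changes were 1.21 and 0.60. Closest to Cd84 were Relch (r = 0.98) and Sbf2 (r = 0.977), closest to Cd48 were Ctso (r = 0.993) and Rab3ip (r = 0.988), the latter with 0 counts in 2 diseased mice, and closest to Ly9 were Tmx2 (r = 0.97) and Arap1 (r = 0.957). The 2 genes for each receptor were picked as the highest of 10504 over only 6 libraries. Between 24 genes for Ly9 and 210 for Slamf9 had an r above 0.9.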

How the data were processed

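RNA of sorted PMs was sequenced as paired-end reads of stranded mRNA libraries. The authors deposited estimated counts per RefSeq transcript record as whole numbers, 1 file per mouse and without normalization. The submitters' processing notes name Salmon 0.8.0, DESeq2 and GRCm38.p6, with no role stated, and that build derives from C57BL/6J, a strain that is no parent of these mice. How strain variants or reads shared by records changed the estimates was not tested. Records were matched by accession to a RefSeq table of GRCm38.p6 (86466 of 107193), and counts were summed per gene. Unmatched records held 6.98% to 10.9% of a library.

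Genes were filtered with filterByExpr and compared with edgeR 4.0.16 in R 4.3.3 (TMM, quasi-likelihood test, Benjamini-Hochberg adjustment over 10505 genes), with no covariate. Calls needed 1.5-fold or more and a p-value below 0.05 after adjustment. Intervals of fold changes are 95% intervals from the standard error. Normalized counts used DESeq2 1.42.0 size factors, and errors are SDs over 3 mice, each a separate animal. Lengths are exon unions of GENCODE vM21, and other positions are those of the RefSeq table. Members, lists, markers and the rule for named genes were chosen with earlier results of these data known. The rule took the 6 members, the other SLAM receptors, called genes and the smallest p in each direction of the partner and interval lists, the most abundant and called markers, and the 2 most similar genes per tested member. A result that the rule named in the partner list is not reported here. Alternatives were DESeq2, limma-voom 3.58.1, 2 normalizations, 2 filters, the replicate block, age, robust dispersion, curated records, single records and each mouse left out. The code was tested on simulated data.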

Additional observations from a re-analysis of the deposited data

How the results depend on the processing

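No SLAM gene that was tested was called under any of 17 alternative settings, and Slamf7 was tested in 1 of them, that without the low-count filter. The settings were DESeq2, limma-voom, other normalizations and filters, the replicate block, age, robust dispersion, curated records, no fold threshold and each mouse left out. Of 102 alternative values of their log2 fold changes, 94 kept their direction and 8 changed sign. Those with robust dispersion, and that of Slamf7 without the filter, equalled the main values and so were no test of direction. Cd84 took 0.16 on record NM_001289470 alone and -0.13 to 0.043 with each mouse left out. Ly9 took 0.059 on record NM_001277968, 0.11 on NR_102726 and -0.28 to 0.12 with a mouse left out. Slamf7, fitted without the filter, took -0.39 with curated records alone and -0.30 to 0.60 with a mouse left out. The cause was not tested. The adjusted p of Slamf9 ranged from 0.246 to 0.477 over genes and was 0.931 in the fit over single records. With at least 10 counts in every library, Slamf8 and Slamf9 were not tested either.

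The counts of called genes over the whole series, 42 higher and 86 lower, became 133 and 239 with DESeq2, 89 and 170 without the filter, 27 and 57 with at least 10 counts in every library, and 9 and 7 with curated records alone. With the replicate block they became 18 and 20, and with age as a covariate 53 were lower. With a mouse left out, 11 to 22 were higher and 10 to 29 lower. Same-numbered mice are different animals, and the correlations of their deviations from the group means were 0.117, 0.00556 and 0.157, so the numbers were not taken to pair them. Not every mouse correlated best with its own number. Slamf7 and Slamf8 had at most 20 counts in a mouse.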
